A study of Mus musculus with 18 samples.

Results

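The RNA compared here was taken from the polysomes of pachytene spermatocytes and of round spermatids, the cells before and after the meiotic divisions of the male mouse. The 6 libraries, 3 labelled pachytene polysome and 3 labelled round polysome, were chosen by their labels from the 18 libraries of the series, which also holds elongating spermatids and, for each cell type, the RNP fraction of ribonucleoprotein particles that are lighter than ribosomes. All mice were adult, wild type and on the C57BL/6 strain (C57BL/6 J in the study's methods), and no group carried a transgene or a treatment that another lacked. Cells were separated by sedimentation at unit gravity (STA-PUT) from pooled testes in medium with cycloheximide, which holds ribosomes on mRNA, their purity was judged by morphology, and polysomes were taken from the heavy end of a sucrose gradient. Nothing in the labels says whether replicates came from separate purifications, so the spread between libraries may be technical. The p-values of the main fit measure that spread pooled over the groups of all 18 libraries, not over these 6 alone. The question put to these libraries was which mRNAs gain or lose a place on polysomes from pachytene to round, and how the length of the 3′ untranslated region (3′ UTR) changes with it.

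Pachytene spermatocytes pair and recombine their chromosomes, and they already transcribe and store many mRNAs of the later sperm. Round spermatids are haploid, build the acrosome and start the flagellum, and keep many mRNAs untranslated in RNPs until the nucleus condenses. The X and Y chromosomes are silenced in pachytene cells, and part of the X is transcribed again after meiosis. A gene's level in polysome RNA rises with the amount of its mRNA as well as with the share that is on ribosomes, so a change in polysomes alone does not separate transcription from translation.

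A gene's level is given as scaled FPKM, which is fragments of a transcript normalised to its length and to all mapped fragments of the library, summed over the assembled transcripts that share a splice junction with the gene on its strand and divided by a library factor. Of the 15280 genes with a value in any library, 12952 reached an FPKM of 1 in 3 or more of the 6 libraries and were tested. The files hold no read counts, so the depth is unknown. They list 43450 to 58653 assembled transcripts per pachytene library and 52625 to 109864 per round library.

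The library labelled round 2 stood apart from the others. Its log2 levels correlated across genes with those of round 1 and round 3 at r = 0.465 and 0.58, while round 1 and 3 correlated at r = 0.843. With pachytene 1, 2 and 3 its correlations were 0.5, 0.709 and 0.722, and pachytene 1 correlated with round 1 at 0.83 and with pachytene 2 at 0.753. These are descriptions over genes, which are not independent replicates.

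Sums over marker genes also set round 2 apart. The 15 tested markers of round spermatids summed to 814, 258 and 558 scaled FPKM in pachytene libraries 1, 2 and 3. They summed to 1575 in round 1 and 1185 in round 3, but to 124 in the library labelled round 2, below all 3 pachytene libraries. The 18 markers of elongating spermatids summed to 2519, 400 and 896 in pachytene, to 3369 in round 1, to 1933 in round 3 and to 159 in round 2. The 16 markers of pachytene spermatocytes summed to between 1898 and 2914 in pachytene and to between 1348 and 1729 in round, with no overlap and with no marker at 0 in any library. Their median log2 levels did overlap, at 7.05, 6.18 and 6.64 in pachytene and 6.60, 5.78 and 6.83 in round, and without round 2 there were 8 of the 16 higher and 8 lower. Of their sums, Sycp1 alone made up 1269, 1259 and 209.7 in pachytene and 92.1, 231 and 235 in round.

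Markers of other testis cells also differed between libraries. The 24 tested markers of Sertoli cells, the somatic cells that nurse the germ cells, summed to 409, 1296 and 1375 in pachytene, to 2260 in round 2, and to 141 and 236 in round 1 and 3. Amh, the Sertoli cell hormone, was listed at 0 in pachytene 1, round 1 and round 3 and had 4.88, 3.44 and 10.4 scaled FPKM in pachytene 2, pachytene 3 and round 2. The 21 markers of spermatogonia and early spermatocytes summed to 1592 in round 2 and to between 395 and 870 in the other 5 libraries. The 13 Leydig cell markers summed to 179 to 256 in pachytene and 84 to 112 in round, with no overlap. The 12 peritubular myoid markers summed to 50 to 114 in pachytene and 99 to 165 in round, and the 11 macrophage and blood markers to 17 to 37 and 29 to 60. The part these cells take in the differences below was not tested. Counts, lists and called genes are given with and without round 2, and the other named genes by their values in every library.

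**Figure D1:**
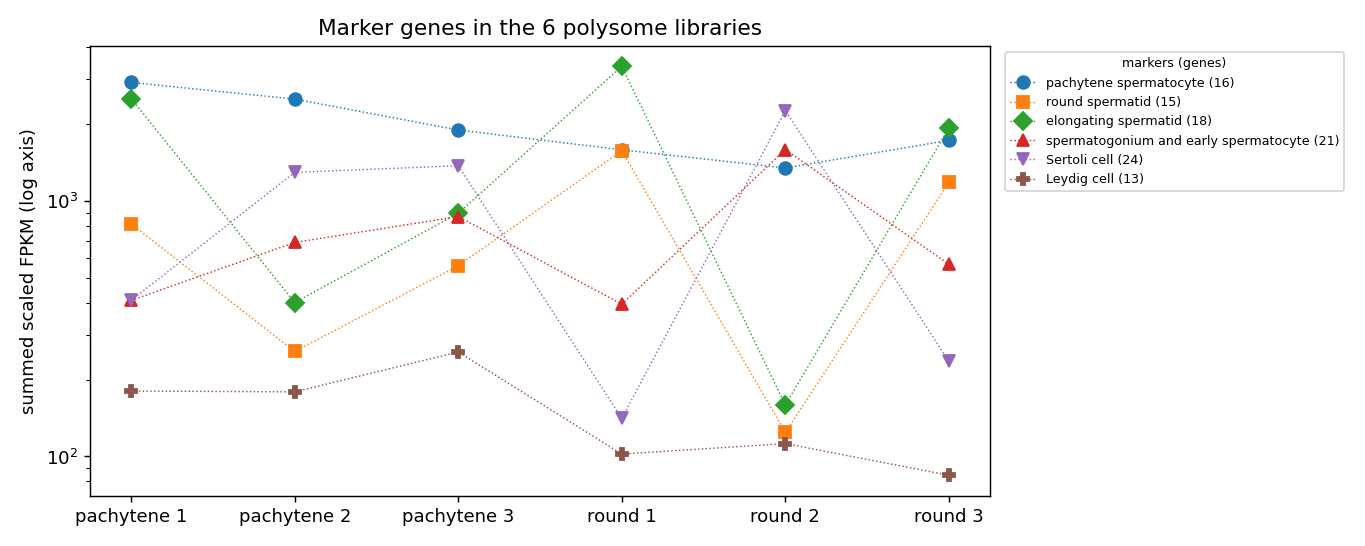
Summed scaled FPKM of 6 sets of marker genes (log axis) in each of the 6 polysome libraries, 1 point per set and library, with the number of genes in each set in brackets and dotted lines only to guide the eye. Round 2 has the lowest sums of round and elongating spermatid markers, 124 and 159, and the highest sum of Sertoli markers, 2260.

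Few genes separated the 2 stages beyond the spread between libraries. With all 6 libraries, 3 genes rose (0.0232% of those tested) and 9 fell (0.0695%) from pachytene to round polysomes at an adjusted p under 0.05 in limma. At an unadjusted p under 0.05 there were 364 higher and 502 lower genes. Without round 2 the fit called 6 genes higher (0.0463%) and 10 lower (0.0772%), and 8 genes were called both ways. A fit of the 6 polysome libraries alone, without the rest of the series, called 0 higher and 1 lower. All 12 genes called in the main fit had no overlap between the 3 and 3 libraries, as did 797 higher genes (6.15%) and 808 lower genes (6.24%) among all tested. In bulk RNA of this kind, fewer cells of a type and less RNA per cell cannot be told apart.

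Cks2, a small subunit of cyclin-dependent kinases that spermatocytes need to pass the first meiotic division, fell. Its levels were 113.7, 152.2 and 99.7 scaled FPKM in pachytene 1, 2 and 3, and 9.35, 25.0 and 19.7 in round 1, 2 and 3. Each round library lay far below each pachytene library, with a log2 fold change of -2.77 ± 0.42 (SE, n = 3 and 3) and an adjusted p of 0.0187. Here and below the SE rests on the variance over all 18 libraries of the fit. Without round 2 the log2 fold change was -3.05 with an adjusted p of 0.0104. In the fit of the 6 polysome libraries alone the SE was 0.50 and the adjusted p 0.435. In RNPs Cks2 was also lower in round cells, at 13.5, 35.9 and 19.3 scaled FPKM against 92.5, 75.8 and 121 in pachytene.

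1700006A11Rik, BC049730 and 2410022L05Rik, genes without a settled name, also fell, each from a clear level in pachytene to a lower and even level in round. 1700006A11Rik had 68.7, 91.8 and 44.1 scaled FPKM in pachytene and 7.08, 6.83 and 7.35 in round, a log2 fold change of -3.04 ± 0.42 with an adjusted p of 0.00823, and of 0.0189 without round 2. BC049730 had 35.0, 79.3 and 60.0 in pachytene and 9.87, 5.45 and 11.0 in round, a log2 fold change of -2.57 ± 0.41 with an adjusted p of 0.0218. Without round 2 its adjusted p was 0.0524, so that call needed round 2.

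Of the 12 genes, 2410022L05Rik had the smallest standard error. It had 63.0, 56.1 and 44.4 scaled FPKM in pachytene and 16.2, 12.2 and 15.3 in round, a log2 fold change of -1.83 ± 0.29 with an adjusted p of 0.0218 and, without round 2, of 0.043. Both groups were tight and did not overlap. In round 1 a transcript of 183 bases over its exons, which the sum leaves out, had 29.6 scaled FPKM. By exon coverage the log2 fold change of 2410022L05Rik was -1.68 with an adjusted p of 0.0061. With the 6 polysome libraries alone the adjusted p of the sum was 0.659. In RNPs BC049730 and 2410022L05Rik were lower in round cells too, with log2 fold changes of -2.08 and -1.24.

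AY358078, a predicted gene on chromosome 14 (NCBIM37, 52419721 to 52446034, plus strand), had the largest fitted decrease, from 1103, 350.3 and 1269 scaled FPKM in pachytene to 5.11, 5.91 and 6.01 in round. Most of the pachytene value came from a 2-exon fragment of 88, 113 and 72 bases, which alone had 1087, 328.4 and 1259 scaled FPKM and was assembled in none of the 3 round polysome libraries. The longer transcripts of the gene had 16.2, 22.0 and 9.48 scaled FPKM in pachytene, still above all 3 round libraries. The adjusted p was 5.7e-07 for the summed value, and 3.77e-06 without round 2. With the assembled coverage of all annotated exons in place of the sum, the log2 fold change was -4.04 with an adjusted p of 6.18e-05. That value weights each transcript by its bases but still holds the fragment, so it is not free of it. The longer transcripts alone were not fitted. The splice junctions behind these values are shown as 15 exon bases on each side, read 5′ to 3′ on the plus strand of NCBIM37, with the downstream exon in capitals, because the fragment and the longer transcripts do not share one.
Fragment, intron chr14:52419791-52420840, assembled in 3 polysome libraries: ttttcacaggactggGTACCTCAGGTCTTC
Longer transcripts, intron chr14:52423323-52424266, assembled in 6 polysome libraries: tgatttgaactacagGATGAACATTGAATT

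Churc1, Siah1a, Cmya5 and Lepr were listed at 0 in all 3 round polysome libraries, so no fold change is given for them. Churc1, which encodes a zinc finger protein, had 20.1, 67.7 and 12.7 scaled FPKM in pachytene (adjusted p = 0.0002, and 0.000968 without round 2). It was also listed at 0 in the elongating polysome libraries and in the RNPs of both stages, and these zeros enter the variance of the fit. With the 6 polysome libraries alone its adjusted p was 0.289. Uncounted transcripts over its exons had 0.722, 0 and 7.97 in round. By exon coverage its log2 fold change was -1.65 with an adjusted p of 0.0454, and that call was lost without round 2 (adjusted p = 0.0906). Siah1a, a ubiquitin ligase that spermatocytes need to complete meiosis, had 16.2, 17.6 and 10.4 (adjusted p = 0.0239). Single-exon transcripts over its exons, which the sum leaves out, had 4.07, 9.67 and 4.85 scaled FPKM in round, and by exon coverage its log2 fold change was -1.31 with an adjusted p of 0.179. Exon coverage without round 2 did call it lower, at -1.67 with an adjusted p of 0.0476. RNA over the exons of Siah1a was thus assembled in each round library, without its splice junctions.

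Cmya5, a large muscle protein gene, and Lepr, the leptin receptor, were near the filter. Cmya5 had 3.01, 3.48 and 4.21 scaled FPKM in pachytene, from transcripts of 254 to 374 bases (adjusted p = 0.0416). Lepr had 2.46, 2.97 and 3.27 (adjusted p = 0.0218, and 0.037 without round 2). Both genes were listed at 0 in the RNPs of both stages, and these zeros enter the variance of the fit. With the 6 polysome libraries alone the adjusted p was 0.617 for Cmya5 and 0.668 for Lepr. Exon coverage was too low to be tested for either, and without round 2 Siah1a and Cmya5 missed the threshold with adjusted p of 0.0581 and 0.0644.

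Pdk3, the X-linked kinase that inactivates pyruvate dehydrogenase, rose. It had 19.4, 7.497 and 6.91 scaled FPKM in pachytene and 40.03, 70.1 and 61.7 in round, where all 3 libraries were above all 3 of pachytene. The log2 fold change was 2.35 ± 0.39 with an adjusted p of 0.0239, and 1.97 with an adjusted p of 0.0101 by exon coverage. Without round 2 it was 2.19 with an adjusted p of 0.0581.

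Celsr3, a large cadherin of planar cell polarity, had 0.658, 0 and 0.897 scaled FPKM in pachytene and 10.47, 7.33 and 19.1 in round. Its log2 fold change on the log2(scaled FPKM + 1) scale was 3.08 ± 0.54 with an adjusted p of 0.0367, and 3.38 with an adjusted p of 0.037 without round 2. The longest spliced piece of it in any polysome library had 746 bases, for an annotated mRNA of 11541. Its round levels are sums over 3, 4 and 10 such pieces. Exon coverage of Celsr3, at 0.36, 0.29 and 0.59 in round, was too low to be tested. With the 6 polysome libraries alone its adjusted p was 0.424.

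Hspa2, the testis member of the 70-kDa heat shock proteins that spermatocytes need for meiosis, passed the threshold with an adjusted p of 0.0218, and of 0.0189 without round 2, but its direction depended on how transcripts were counted. It was listed at 0 in all 3 pachytene libraries and had 233.5, 38.5 and 209.1 scaled FPKM in round. In pachytene the gene was assembled without its intron, as single-exon transcripts of 161.2, 183.9 and 508.1 scaled FPKM that the sum leaves out, and round 2 held such a transcript as well, at 91.3. By exon coverage it had 135.2, 159.3 and 414.0 in pachytene and 222.9, 129.4 and 193.3 in round, which overlap, with a log2 fold change of -0.23 and an adjusted p of 0.985. What separated the stages was the spliced 5′ exon, found in the 3 round libraries and in no pachytene polysome library. Its junction is shown on the plus strand of NCBIM37, with the downstream exon in capitals.
Hspa2, intron chr12:77505277-77505515: ggtcactccgaccagTCAGGATGTCTGCCC

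**Figure D2:**
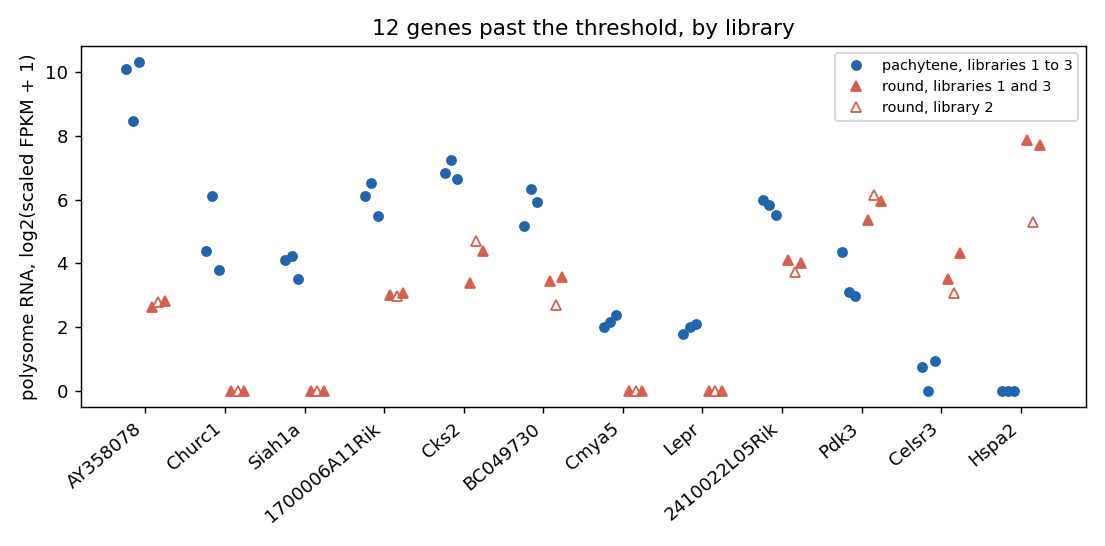
Level of the 12 called genes in each library as log2(scaled FPKM + 1), with pachytene libraries as circles, round 1 and 3 as filled triangles and round 2 as an open triangle. The 3 and 3 libraries do not overlap for any of the 12, and 5 genes lie at 0 throughout 1 stage.

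Exon coverage, which was added after the data had been seen, tested 12250 genes and called 3 higher (0.0245%) and 29 lower (0.237%). Of the 9 called genes that it could test, 7 were called again. Others passed by this measure and not by the sum, and their levels are given here as sums unless exon coverage is named. Mgll, the lipase of monoacylglycerols, had 46.1, 32.3 and 24.4 scaled FPKM in pachytene and 6.89, 3.26 and 6.19 in round (adjusted p = 0.00394 by exon coverage and 0.0571 by the sum). Gmcl1, the mouse germ cell-less gene, had 91.1, 66.3 and 74.1 in pachytene and 42.6, 26.8 and 38.0 in round (adjusted p = 0.000109 and 0.535). By exon coverage it had 59.6, 46.3 and 47.9 in pachytene and 11.0, 10.8 and 9.64 in round. Dr1, a repressor of transcription by RNA polymerase II, had 76.4, 58.4 and 54.4 in pachytene and 24.2, 24.6 and 24.7 in round (adjusted p = 0.0314 and 0.18). With FPKM weighted by transcript length, limma also called Mgll, Gmcl1 and Dr1 lower. Tmpo, a protein of the nuclear lamina, was higher, with 21.1, 18.5 and 25.9 in pachytene and 48.5, 36.4 and 31.4 in round (adjusted p = 0.0301 and 0.535). By exon coverage it had 9.498, 8.465 and 10.3 in pachytene and 36.3, 22.2 and 36.9 in round. With length-weighted FPKM its log2 fold change was -0.09. Gm8267 and Gm5622, predicted genes on chromosome 14 like AY358078, were also lower by exon coverage, with adjusted p of 0.0101 and 0.0203. Whether reads of related copies were divided between such genes was not tested.

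There were 8 genes called only when round 2 was left out. Asxl1, a chromatin regulator, had 28.4, 16.8 and 24.0 scaled FPKM in pachytene, 115.7 and 85.8 in round 1 and 3, and 21.3 in round 2, inside the pachytene range. Efhc2, an X-linked EF-hand protein gene, had 4.90, 3.02 and 6.54 in pachytene, 40.5 and 60.0 in round 1 and 3, and 2.51 in round 2, the lowest of all 6. Their log2 fold changes without round 2 were 2.09 and 3.16, with adjusted p of 0.037 and 0.00766. By exon coverage without round 2 they were 0.82 and 1.66, with adjusted p of 0.19 and 0.116, which did not pass. Atad2, a bromodomain ATPase, had 6.96, 5.96 and 11.5 in pachytene and 130.4, 33.5 and 38.3 in round (adjusted p = 0.0571 with all libraries and 0.0405 without round 2). Its log2 fold change without round 2 was 3.02 by the sum and 1.575 by exon coverage, where it did not pass (adjusted p = 0.21). Its longest counted transcript had 1034 bases in round 1 and 4566, 5539 and 4747 in pachytene.

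Gdi2, an inhibitor of Rab GTPases found in most cells, was called lower without round 2, but it was listed at 0 in round 1 and 3 and had 82.7 scaled FPKM in round 2 and 43.0 to 73.8 in pachytene. No other transcript overlapped its exons in round 1 or 3. Such zeros were not rare, as 145 tested genes were listed at 0 in round 1 and 3 and above 0 in the other 4 libraries. A listed 0 of this kind can be a failed estimate, and no fold change is given.

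For genes of sperm formation the fits with and without round 2 gave different medians. Of 33 listed genes of the acrosome and of gamete fusion, 27 were tested and none passed the threshold. Their median level was log2 5.47, 4.62 and 5.33 in pachytene, 6.65 in round 1 and 5.97 in round 3, but 3.37 in round 2. With all libraries 15 members were higher and 12 lower, the median log2 fold change was 0.15 (0.06 over all genes tested), and the groups did not overlap for 0 members. Without round 2 the median was 1.20 (0.01 over all genes), and round 1 and 3 were both above all pachytene libraries for 13 of 27 members, against 16.6% of all genes tested.

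Acrv1, an acrosomal matrix protein, illustrates the pattern with 92.3, 17.8 and 91.1 scaled FPKM in pachytene, 319 and 221 in round 1 and 3, and 7.06 in round 2. Its log2 fold change was 0.61 with all libraries (adjusted p = 0.999) and 2.29 without round 2 (adjusted p = 0.505), which did not pass. Spata16, needed to form the acrosome, had 99.0, 62.7 and 98.5 in pachytene and 239, 26.4 and 130.2 in round 1, 2 and 3. Spaca1, of the acrosomal membrane, overlapped even without round 2, with 209, 44.7 and 89.7 against 165 and 253. Acrv1, Spata16 and Spaca1 are also round spermatid markers and part of the sums that set round 2 apart. Their low values in round 2 are therefore no separate observation, and the acrosome list is not independent of those sums.

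The other lists of spermatid genes also had higher medians without round 2, and none of their members passed the threshold. Any of their members that are also spermatid markers are no separate observation from the marker sums. Without any scaling between libraries the medians of the acrosome, ADAM and chromatin condensation lists were -0.03, -0.05 and -0.04 with all libraries, when that over all genes was -0.10. For the CatSper calcium channel and other sperm ion transporters (15 of 17 tested) the median log2 fold change was 0.42 with all libraries and 1.39 without round 2, where 8 members did not overlap and were higher. For the ADAM proteins of the sperm surface and their chaperones (16 of 25) the medians were 0.17 and 1.41, with 9 such members. For the sperm tail (37 of 43) they were -0.07 and 0.59, with 15. For chromatin condensation (13 of 21) they were 0.14 and 0.82, with 3, and for spermatid kinases and phosphatases (19 of 22) -0.11 and 0.52, with 8. These counts without round 2 stand against 16.6% of all genes tested, which the 3 of 13 condensation genes came near, and 2 of those 13 were lower without overlap.

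Single members show the size of the gap between round libraries. Kcnu1, the sperm potassium channel, had 19.6, 3.55 and 7.42 scaled FPKM in pachytene, 328 and 39.2 in round 1 and 3, and 8.25 in round 2. Calr3, a testis chaperone that ADAM3 needs, had 17.0, 2.44 and 39.5 in pachytene, 191 and 92.7 in round 1 and 3, and 4.67 in round 2. Tnp2, a transition protein that replaces histones, had 216, 3.60 and 79.4 in pachytene, 434 and 513 in round 1 and 3, and 12.4 in round 2, so pachytene libraries differed among themselves by more than most genes changed. Tnp2 is also one of the elongating spermatid markers summed above. Ddx25, the RNA helicase of mRNA export and storage in spermatids, had 62.1, 31.5 and 70.8 in pachytene, 379.6 and 340.0 in round 1 and 3, and 53.4 in round 2.

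**Figure D3:**
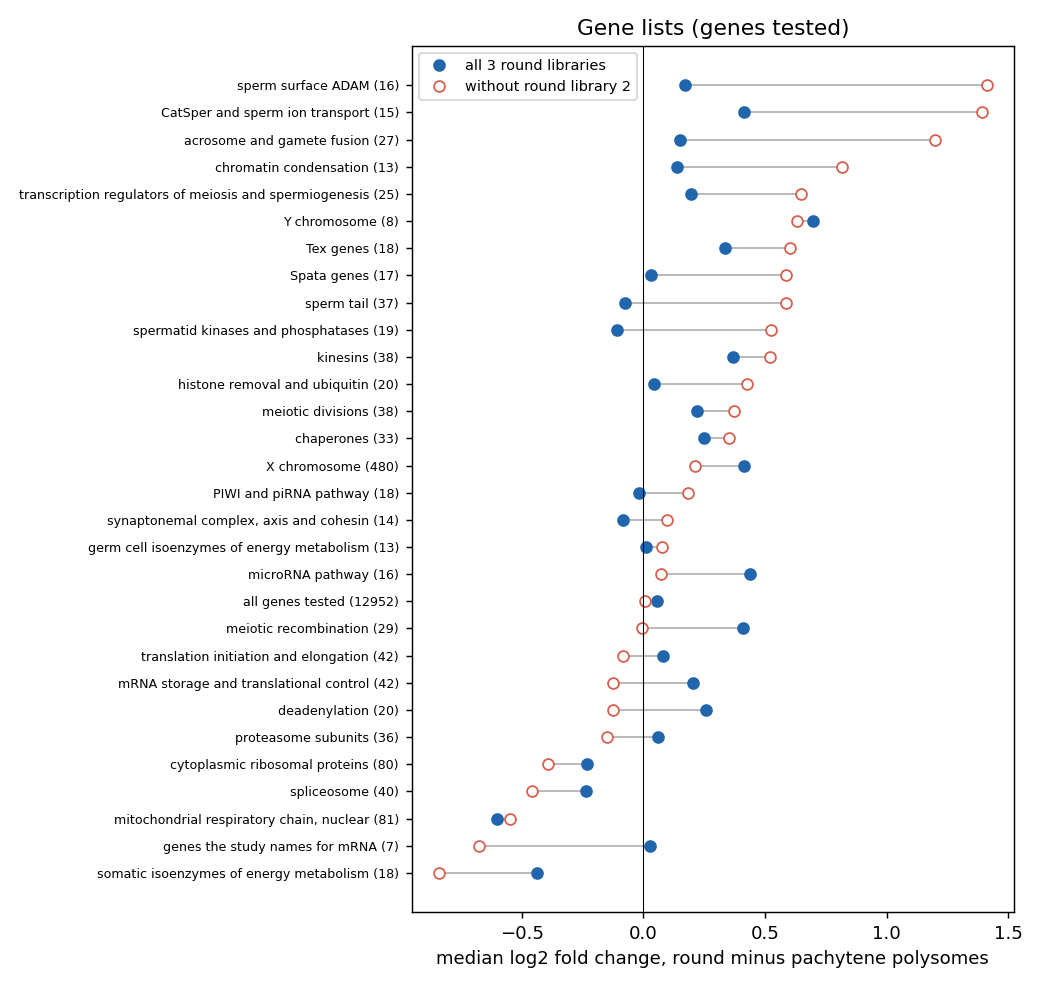
Median log2 fold change of each gene list from pachytene to round polysomes with all 3 round libraries (filled) and without round 2 (open), with the number of genes tested in brackets. The ADAM list moves from 0.17 to 1.41 between the 2 medians, while the respiratory chain stays at -0.60 and -0.55.

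Genes of meiosis gave no common direction. Of the 14 tested genes of the synaptonemal complex, chromosome axis and cohesin, 6 were higher and 8 lower, with a median of -0.08 on the log2 scale, and 0.10 without round 2. Sycp1, the transverse filament of the synaptonemal complex, had 1269, 1259 and 209.7 scaled FPKM in pachytene and 92.1, 231 and 235 in round, a log2 fold change of -2.02 that did not pass (adjusted p = 0.64). By exon coverage it had 79.0, 91.4 and 89.9 in pachytene and 42.9, 115.5 and 48.1 in round, which overlap, with a log2 fold change of -0.47. Sycp3, of its lateral element, had 194, 320.0 and 389.6 in pachytene and 98.0, 393 and 199 in round. Among 29 genes of recombination, 21 were higher and 8 lower (median 0.41, and -0.01 without round 2), and none passed. Spo11, which makes the breaks that start recombination, had 54.3, 29.6 and 36.6 in pachytene and 26.9, 15.2 and 19.3 in round (log2 fold change -0.93, adjusted p = 0.584).

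Of 38 genes of the meiotic divisions, Cks2 and Hspa2 were the 2 past the threshold. The median was 0.22 with all libraries and 0.37 without round 2. Ccna1, the cyclin of male meiosis, had 152, 64.1 and 160.3 scaled FPKM in pachytene and 185, 30.2 and 162 in round, with overlap. Mybl1, the factor that drives transcription of piRNA precursors and of meiotic genes, had 27.8, 23.7 and 48.4 in pachytene and 118, 90.0 and 145 in round, all higher, yet missed the threshold (log2 fold change 1.83, adjusted p = 0.246) and by exon coverage had a log2 fold change of -0.10. For the 18 tested genes of the PIWI and piRNA pathway the median was -0.02, and 0.18 without round 2, with Mael at 412, 176 and 274 in pachytene and 418, 166 and 289.5 in round. For 25 regulators of transcription it was 0.20, and 0.65 without round 2, when 20 were higher and 5 lower. Crem, the activator of spermatid genes, had 77.6, 60.7 and 109 in pachytene and 109, 17.2 and 88.6 in round.

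Nuclear genes of the mitochondrial respiratory chain were mostly lower in round polysomes, with and without round 2. Of 81 tested, 70 were lower and 11 higher, and for 22 the 3 round libraries all lay below the 3 of pachytene, against 6.24% of all genes tested, while 0 lay above. None passed the threshold by itself. Their median level was log2 6.04, 6.44 and 5.95 in pachytene and 5.51, 5.20 and 5.55 in round, with no overlap. The median log2 fold change was -0.60 with all libraries, -0.55 without round 2 and -0.45 by exon coverage. Without round 2, 30 of 81 lay below all of pachytene, against 16.7% of all genes. In RNPs 52 of the 81 were lower in round cells, with a median of -0.12.

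Lower members were the majority in each complex of the chain. For NADH dehydrogenase 33 of 36 subunits and assembly factors were lower (median -0.59), for succinate dehydrogenase 3 of 4 (-0.61), for cytochrome bc1 6 of 8 (-0.97), for cytochrome c oxidase 13 of 16 (-0.69) and for ATP synthase 15 of 17 (-0.49). Without round 2 these medians were -0.56, -0.70, -0.47, -0.45 and -0.55. Ndufc2, a subunit of NADH dehydrogenase, had 84.8, 103 and 56.0 scaled FPKM in pachytene and 27.8, 33.7 and 31.1 in round (log2 fold change -1.33 ± 0.36, adjusted p = 0.247). Sdhc, an anchor of succinate dehydrogenase in the membrane, had 52.7, 66.4 and 60.7 in pachytene and 25.2, 33.9 and 27.8 in round (-1.03 ± 0.33, adjusted p = 0.411). Cox7c, of cytochrome c oxidase, had 181.0, 256.3 and 106.5 in pachytene and 85.1, 54.8 and 66.6 in round (-1.32 ± 0.44, adjusted p = 0.432). Atp5b, the catalytic subunit of ATP synthase, went the other way, with 250.4, 171 and 403 in pachytene and 293, 602 and 504 in round.

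The respiratory chain genes are short, and length moved with the change over all genes. Over protein-coding genes the median log2 fold change from pachytene to round polysomes was -0.38 for 774 genes whose longest annotated mRNA is under 1000 nucleotides. It was -0.15 from 1000 to 2000 nucleotides, 0.02 from 2000 to 3000, 0.09 from 3000 to 4000, 0.20 from 4000 to 6000, and 0.33 at 6000 or more. Without round 2 the medians in the same order were -0.13, -0.18, -0.07, -0.02, 0.13 and 0.26, and in RNPs the ends were 0.08 and 0.18. Genes with all 3 round libraries below pachytene made up 14.99% of the shortest class and 2.15% of the longest. Of the respiratory chain genes under 1000 nucleotides, 42 of 43 were lower and 17 did not overlap (19 without round 2). Of the ribosomal protein genes under 1000 nucleotides, 37 of 45 were lower and 6 did not overlap (10 without round 2). Of all protein-coding genes in that class, 545 of 774 (70.4%) were lower. The share lower without overlap was 39.5% for these respiratory chain genes and 13.3% for these ribosomal ones, against the 14.99% of the class. Without round 2 it was 16.7% over tested genes of all lengths. The part of length, and of any difference in library preparation that acts through it, was not tested.

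**Figure D4:**
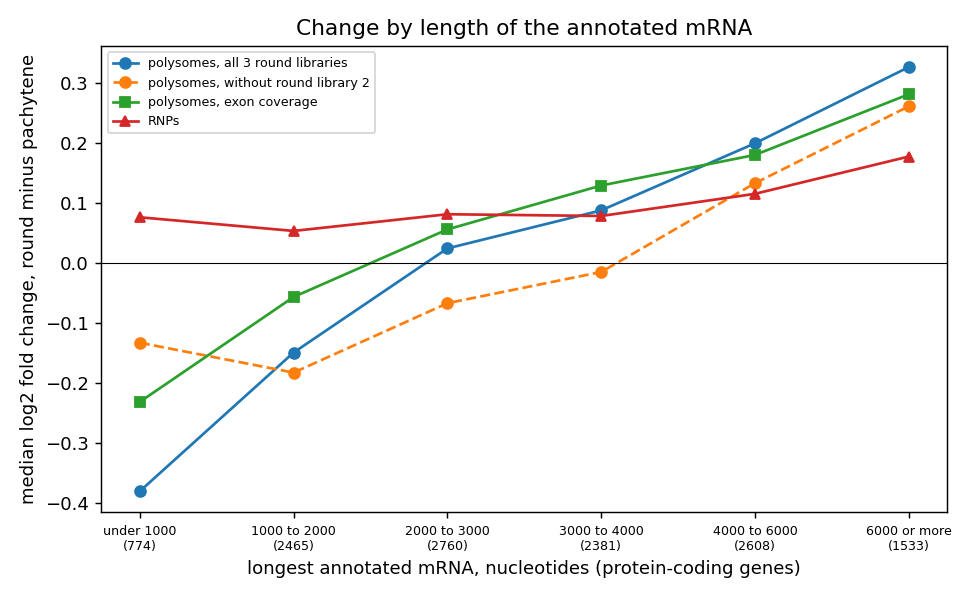
Median log2 fold change from pachytene to round by length of the longest annotated mRNA, for protein-coding genes in 6 classes (number of genes in brackets), in polysomes with 3 values of the fit and in RNPs. In polysomes the median climbs from -0.38 in the shortest class to 0.33 in the longest, and in RNPs it stays between 0.05 and 0.18.

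No gene of the translation apparatus passed the threshold. Of 80 cytoplasmic ribosomal protein genes 55 were lower and 25 higher, none passed, and the median was -0.23 (-0.39 without round 2). Rps9 was among the 25 higher, with 304, 165 and 188 scaled FPKM in pachytene and 409, 560.1 and 468 in round, a log2 fold change of 1.17 (adjusted p = 0.742). Of 42 initiation and elongation factors 23 were higher and 19 lower (median 0.08, and -0.08 without round 2). Eef1a1, which brings aminoacyl-tRNA to the ribosome, had 511, 725 and 753 in pachytene and 355, 872 and 375 in round. Of 42 genes of mRNA storage 25 were higher and 17 lower (median 0.20, and -0.12 without round 2), and Ybx2, the Y-box protein that holds spermatid mRNAs in RNPs, had 156, 179.6 and 217 in pachytene and 257, 61.5 and 234 in round. The 36 proteasome subunits had a median of 0.06, and -0.15 without round 2, and the 40 spliceosome genes one of -0.24, and -0.46 without round 2.

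Enzymes of energy metabolism were listed by the cells that use each isoform, and none passed. Germ cell isoenzymes (13 of 20 tested) had a median log2 fold change of 0.01, and 0.08 without round 2. Ldhc, the testis lactate dehydrogenase, had 1234, 626 and 1260 scaled FPKM in pachytene and 2267, 358 and 1945 in round. Slc2a3, the glucose transporter of germ cells, had 599, 356 and 555 in pachytene and 300.3, 104 and 236 in round, with no overlap, at a log2 fold change of -1.33 (adjusted p = 0.692). Somatic isoenzymes (18 of 18) were lower for 14 members with a median of -0.44, and -0.84 without round 2. These moved with the Sertoli sums given above, whose part was not tested, Ldhb having 11.9, 59.3 and 102 in pachytene, 4.17 and 11.98 in round 1 and 3, and 199.5 in round 2.

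Genes of the X chromosome were mostly higher in round polysomes. Of 480 tested protein-coding genes, 334 were higher and 146 lower, against 6880 and 6072 of all 12952 genes tested, and for 51 all 3 round libraries lay above all 3 of pachytene, against 6.15% of all genes tested. For 6 they all lay below. Without round 2, 283 were higher and 197 lower, and there were 106 above and 49 below without overlap, against 16.6% and 16.7% of all genes tested. The median level of the X-linked genes was log2 1.83, 2.56 and 2.31 in pachytene and 2.33, 2.96 and 2.58 in round, with overlap and highest in round 2. Their median log2 fold change was 0.41 with all libraries, 0.21 without round 2, 0.30 without scaling and 0.44 in RNPs. By exon coverage it was 0.43, and 0.14 without round 2. Pdk3 was the 1 X-linked gene past the threshold. A larger share of X-linked than of other genes was higher without overlap in 5 of 6 length classes. In the class of 4000 to 6000 nucleotides, 18.5% of X-linked genes did not overlap and were higher, against 8.82% of the others, and at 6000 or more it was 8.20% against 11.96%.

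Among the 51 are genes with products used in most cells. Prdx4, a peroxidase of the endoplasmic reticulum, had 53.2, 54.0 and 95.4 scaled FPKM in pachytene and 137, 207 and 163 in round (log2 fold change 1.34, adjusted p = 0.33). Cul4b, the scaffold of a ubiquitin ligase, had 22.4, 38.7 and 32.7 in pachytene and 119, 99.2 and 157 in round (1.97, adjusted p = 0.426). Stag2, a subunit of mitotic cohesin, had 4.97, 6.04 and 9.48 in pachytene and 55.5, 40.2 and 31.5 in round (2.47, adjusted p = 0.2). Uba1, the main enzyme that activates ubiquitin, had 9.77, 24.7 and 45.7 in pachytene and 153, 57.4 and 94.4 in round. Tsx, a gene of Sertoli and germ cells, was among the 6 in the other direction, with 22.0, 80.1 and 35.0 in pachytene and 2.20, 21.6 and 5.13 in round.

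Of 8 tested Y-linked genes, 7 were higher in round polysomes with a median of 0.70, and 0.63 without round 2, and none passed. Eif2s3y, a subunit of initiation factor 2, had 13.9, 30.2 and 24.7 scaled FPKM in pachytene and 41.5, 37.7 and 34.1 in round, without overlap (log2 fold change 0.76, adjusted p = 0.815).

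Churc1, Cmya5 and Lepr were listed at 0 in all 6 RNP libraries of these stages, and the other called genes had the same sign of change there as in polysomes. From pachytene to round RNPs limma called 0 genes, with 765 at an unadjusted p under 0.05. The change in polysomes differed from that in RNPs for 2 genes (0.0154%), AY358078 and Churc1, with 317 at an unadjusted p under 0.05. Without round polysome 2 it differed for 5 genes. AY358078 had 13.6, 13.7 and 19.9 scaled FPKM in pachytene RNPs and 6.50, 7.80 and 6.76 in round RNPs. By exon coverage the difference passed for 0 genes.

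The weighted 3′ UTR length was computed over 248 genes with at least 2 spliced coding transcripts that differ by 50 nucleotides or more. Each length is counted from the stop codon of the annotation up to where the assembled transcript stops, and the value is a geometric mean weighted by FPKM within each gene. It was 738.5, 903.1 and 899.2 nucleotides in pachytene 1, 2 and 3, and 567.5, 842.5 and 776.1 in round 1, 2 and 3. Round 2 and 3 lay above pachytene 1, so the groups overlapped. The log2 difference was -0.23, with SDs of 0.17 in pachytene and 0.30 in round (n = 3 and 3) and a 2-sided exact permutation p of 0.3, where 0.1 is the smallest this design allows. Of the 248 genes, 148 were shorter and 100 longer in round, and without round 2 there were 171 shorter and 77 longer. For 20 genes all 3 round values were below those of pachytene by a mean ratio of at least 1.1, and for 7 they were above.

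With annotated lengths of the same kind of transcript the log2 difference was -0.06 (exact permutation p = 0.7). Over all coding transcripts of 9949 genes weighted by FPKM, the values were 373.2, 435.7 and 446.2 nucleotides in pachytene and 313.4, 508.3 and 370.7 in round, a log2 difference of -0.10 (exact permutation p = 0.6). In each of the 3 measures round 1 had the shortest value of the 6 libraries.

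**Figure D5:**
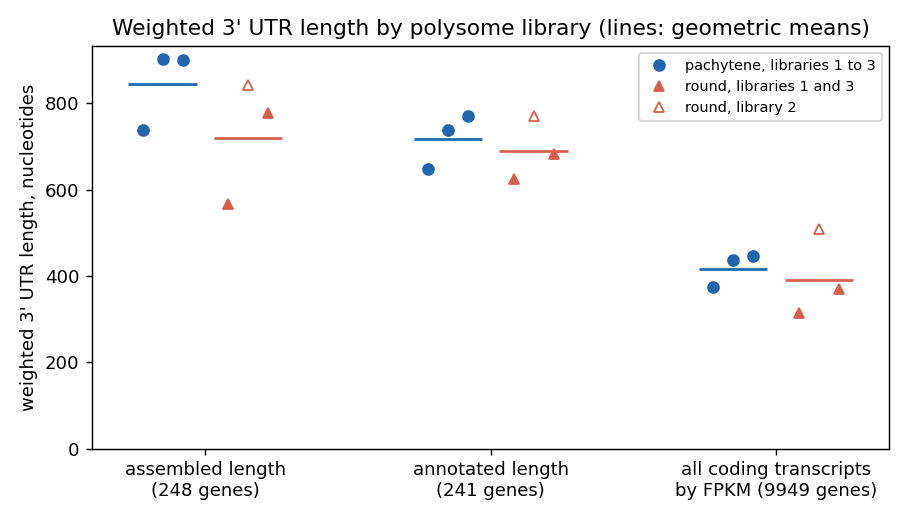
Weighted 3′ UTR length in nucleotides by library, for assembled ends, annotated ends and all coding transcripts weighted by FPKM, with points for libraries and lines for the geometric mean of 3. Round 1 is lowest in each measure and the 2 stages overlap in each.

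Cebpg, Eif4h, Ubp1 and Hip1 served the study as examples of 3′ UTR ends. They were also its examples of longer isoforms that in general fell and shorter ones that rose, which it measured by qPCR too. None of them passed as a sum over transcripts, which is a different measure. Coding transcripts with a whole annotated intron chain were found only for Cebpg and Eif4h, without isoforms of different assembled 3′ UTR length within a library. The shift between isoforms could therefore not be examined here. Cebpg, a C/EBP transcription factor, had 17.2, 17.9 and 17.2 scaled FPKM in pachytene and 9.55, 4.56 and 10.02 in round, all lower, with a log2 fold change of -1.09 (adjusted p = 0.719). Its coding transcript ended 3357, 3060 and 3333 nucleotides after the stop codon in pachytene and 2998, 3820 and 3484 in round, in no order by stage. Ubp1, a grainyhead-like transcription factor, had 9.64, 7.495 and 5.81 in pachytene and 12.3, 15.2 and 14.5 in round, all higher (log2 fold change 0.81, adjusted p = 0.958).

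Eif4h, a helper of the initiation helicase, had 52.1, 45.8 and 69.0 scaled FPKM in pachytene and 38.4, 54.0 and 29.9 in round. Hip1, an endocytic adaptor, had 10.02, 10.7 and 7.74 in pachytene and 5.25, 24.3 and 6.54 in round, so round 2 set the sign of its change. Round 2 also set the sign for Drosha, the nuclease that releases precursor microRNAs, with 11.8, 9.81 and 23.1 in pachytene and 4.48, 84.6 and 9.85 in round. Clu, which the study treats as a ubiquitous gene without delayed translation, had 36.7, 314 and 435 in pachytene. It had 18.7 and 32.5 in round 1 and 3, and 953 in round 2. Clu is on the Sertoli list used here and is part of those sums, such as the 2260 of round 2, so likeness to them is no separate observation.

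Genes of the microRNA pathway were 12 higher and 4 lower of 16 (median 0.44, and 0.07 without round 2), and none passed. Zcchc6, a terminal uridyltransferase, had 19.7, 16.7 and 11.3 scaled FPKM in pachytene and 51.3, 26.9 and 48.2 in round, without overlap (log2 fold change 1.33, adjusted p = 0.881). Of 20 deadenylation genes 13 were higher and 7 lower (median 0.26, and -0.13 without round 2). Of 38 kinesins 25 were higher and 13 lower (median 0.37, and 0.52 without round 2). Kif1b, a motor of organelle transport, had 5.76, 24.2 and 19.5 in pachytene and 245, 116 and 127 in round, all higher, with a log2 fold change of 3.35 (adjusted p = 0.0998). The 33 tested chaperones had a median of 0.25 (0.35 without round 2) and, apart from Hspa2, none passed.

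Of the remaining lists, 20 genes of histone removal and ubiquitin had a median of 0.04, the 17 Spata genes one of 0.03 and the 18 Tex genes one of 0.34. Without round 2 these medians were 0.43, 0.59 and 0.60. Then 6, 6 and 5 members were higher without overlap and 3, 1 and 2 lower, against 16.6% and 16.7% of all genes tested. Usp7, a protease that removes ubiquitin, had 66.4, 77.3 and 68.2 scaled FPKM in pachytene and 164, 102 and 233 in round, without overlap (log2 fold change 1.15, adjusted p = 0.747). All 12 called genes were protein-coding, as were 12521 of the 12952 tested. Of 180 long intergenic noncoding RNA genes 119 were lower in round polysomes, 29 without overlap (against 6.24% of all genes tested), with a median of -0.35. Without round 2 that median was -0.03, and 34 were lower without overlap, against 16.7% of all genes.

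The cAMP response element TGACGTCA, to which Crem binds, was searched on both strands of promoters, windows of 300 bases around the gene's start (RefSeq, GRCm38.p6), as was its shorter form TGACGT, which the full element contains. Of the 12 called genes 9 had a promoter in this table, and 0 of the 9 held either form. Among all tested genes 3.63% of 9224 promoters held the full element and 12.96% the shorter form. Among genes without overlap the shares were 3.30% and 15.1% for those higher in round, and 3.46% and 12.4% for those lower. Without round 2 they were 3.67% and 12.8%, and 3.92% and 12.7%. No match says only that these letters are not in this window.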

How the data were processed

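Polysome and RNP RNA was sequenced with a stranded total RNA kit, reads were mapped with TopHat2 (TopHat in the submitters' processing notes) and transcripts assembled for each library with Cufflinks, with no further version given in the sources used here, and the deposited FPKM values are those the authors obtained from Cufflinks. The methods name single-end and paired-end runs at different centres, without the libraries each covers. Spliced transcripts were matched to GENCODE genes of mouse build mm9 by strand and shared junction, and their FPKM summed. Libraries were scaled by median ratios over 6883 genes. Levels as log2(scaled FPKM + 1) were fitted with limma 3.58.1 in R 4.3.3 (trended variance, 6 groups, 18 libraries, 12 residual degrees of freedom), with Benjamini-Hochberg adjustment over 12952 genes and a threshold of 0.05. Fold changes are on that scale, which understates low genes. Tables were made with Python 3.11.15, and the fit was tested on simulated data.

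The genes and lists were chosen with earlier results of these data known. The text names called genes, the most abundant members of each list and genes the study names. Amh, Asxl1, Atad2, Calr3, Cox7c, Cul4b, Dr1, Efhc2, Eif2s3y, Gdi2, Gm5622, Gm8267, Gmcl1, Mgll, Mybl1, Ndufc2, Prdx4, Sdhc, Spata16, Spo11, Stag2, Tmpo, Tsx and Uba1 fall outside that rule and were named after their values were seen.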

Additional observations from a re-analysis of the deposited data

Results flagged for a closer look

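The change from pachytene to round differed between polysomes and RNPs, by the test of that difference in limma, for AY358078 and Churc1. The log2 change in polysomes minus that in RNPs was -5.846 for AY358078 (adjusted p = 0.000916), whose polysome value in pachytene came mostly from a short fragment. It was -4.76 for Churc1 (adjusted p = 0.019), a value that depends on the pseudocount because the gene was listed at 0 in round polysomes and in the RNPs of both stages. By exon coverage neither difference passed.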

How the results depend on the processing

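Against 3 higher and 9 lower genes, a pseudocount of 0.1 gave 8 and 20, no filter 7 and 19, the 6 polysome libraries alone 0 and 1, matching by the whole intron chain 6 and 31, and length-weighted FPKM 10 and 53. Without scaling, which moved the median of all genes from 0.06 to -0.10, 17 genes were lower. Added after seeing the data, exon coverage gave 29 lower genes, exon coverage without round 2 gave 12 higher and 53 lower, and leaving out both polysome libraries numbered 2 gave 0 higher and 4 lower. Leaving out each library in turn gave 0 to 6 higher and 2 to 10 lower genes, with 0 and 2 without pachytene 2, without round 1 or without round 3, and 6 and 10 without round 2. The 2 genes that differed from RNPs became 1 under quantile normalization or an FPKM minimum of 5, 4 by whole intron chain, 0 by length-weighted FPKM, 5 without both round libraries numbered 2, 0 by exon coverage, 1 by exon coverage without round 2, and 1 to 5 when single libraries were left out. The cause was not tested.

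The log2 fold change reversed for BC049730 by whole intron chain (0.43) and for Hspa2 by exon coverage (-0.23). That of Hip1 was -0.14 without scaling, -0.52 without both libraries numbered 2 and -0.60 to 0.41 with single libraries left out. That of Clu was 1.99 by whole intron chain and -2.75 to 0.049 with single libraries left out. That of Drosha was -0.072 by exon coverage without round 2, -1.19 without both libraries numbered 2 and -0.95 to 1.03 with single libraries left out. AY358078 was called under each of its 20 alternatives, all of which kept its short fragment. The 3′ UTR difference stayed negative throughout, from -0.35 without round 2 to -0.06 without round 1 or with annotated ends.

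Deviations of pachytene and round polysome libraries with the same number correlated at 0.538, 0.424 and -0.127, positive for numbers 1 and 2 and not for 3. The main fit did not pair libraries by number, and whether libraries of the same number share a preparation was not tested. With a replicate block 4 genes were higher, 19 lower and 2 different from RNPs, and the 3′ UTR difference was -0.23. Without read counts, the limit that depth sets is unknown.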
